A study of Mus musculus with 6 samples.

Results

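Oxidative phosphorylation genes encode the 5 complexes of the inner mitochondrial membrane that oxidise NADH and succinate to make ATP, and the proton pumps and phosphatases that KEGG files with them. The members were the genes that the deposited table assigns to the KEGG pathway of oxidative phosphorylation and not to that of the lysosome, with at least 10 counts summed over the 6 libraries. They were 115 of the 57180 genes in the table, with 102 encoded in the nucleus and 13 in the mitochondrial genome. Of these, 110 had enough counts to be tested, 97 nuclear and all 13 mitochondrial. The 5 others, Atp6v1g3, Ndufs6b, Cox4i2, Cox7a1 and Atp4a, are described by their counts. A further 11 genes of the pathway held fewer than 10 counts and 10 were shared with the lysosome.

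RNA was compared between CD36+ NK and CD36- NK cells, 3 libraries each. CD36 is a membrane receptor that takes up long-chain fatty acids. The cells came from fibrotic livers of male C57BL/6J mice aged 6 to 8 weeks, which received intraperitoneal CCl4, a toxin that damages hepatocytes, at 2.5 ml/kg of a 20% solution in olive oil, with 2 doses a week over 4 weeks, and were killed 48 h after the last dose. All libraries come from CCl4-treated mice, and NK cells were gated as CD3- NK1.1+. Neither the labels nor the methods say how many mice were pooled for a library or whether libraries of a group came from separate mice, so p-values measure only the spread between these samples, which may be technical.

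Complex I (NADH dehydrogenase) and complex II (succinate dehydrogenase) pass electrons to ubiquinone. Complex III (cytochrome bc1) hands them to cytochrome c, and complex IV (cytochrome c oxidase) gives them to oxygen. Complexes I, III and IV pump protons, and complex V (ATP synthase) lets them back to make ATP. Mammalian mitochondrial DNA encodes 13 of these proteins, transcribed as long precursors from 2 strands and then cut into single mRNAs, whereas each nuclear subunit has a promoter of its own. NK cells are known to raise respiration as well as glycolysis when activated by cytokines.

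The libraries held 10292480 to 13787189 counts. Cd36 itself was at 203 ± 82.1 CPM in CD36+ NK and 21.0 ± 9.37 CPM in CD36- NK (TMM-scaled counts per library size, CPM; SD, n = 3; log2 fold change 3.27, SE 0.43, adjusted p = 0.00615, edgeR). The 10 NK lineage markers, from Ncr1 to Nkg7, were all lower in CD36+ NK, with a summed level of 933 to 1129 CPM against 4956 to 6310 CPM. The 10 tested of 12 macrophage and Kupffer cell markers all lay above 0 in log2 fold change and 4 passed the test, with a summed level of 6736 to 9368 CPM against 2472 to 5812 CPM. The 6 B cell markers, of which 4 passed, summed to 10728 to 12558 CPM against 6497 to 8652 CPM. Of the 8 erythroid markers, 5 were higher, with sums of 351 to 794 CPM against 76.9 to 171 CPM. T cell markers (2 of 7 higher) summed to 27.6 to 296 CPM against 27.2 to 30.9 CPM, with the 296 CPM in CD36+ NK replicate 1. Monocyte and neutrophil markers had 1 of 8 higher and 2 lower, at 954 to 2831 CPM against 1451 to 2685 CPM. Endothelial markers had 1 of 4 tested higher, at 213 to 307 CPM against 154 to 170 CPM. Hepatocyte markers (0 of 6 tested) and stellate cell markers (1 of 6 tested, higher; Lrat at 0) summed to at most 12.2 and 5.57 CPM. The groups therefore differ in markers of other cells, and the part of this in the results was not tested. In such bulk samples, fewer cells of a type and less RNA per cell cannot be told apart.

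The nuclear-encoded members differed little between the groups, and 12 of the 13 mitochondrially encoded members had higher values in CD36+ NK libraries, while 0 of 13 passed the test. Among all 14761 tested genes, 10.5% passed an adjusted p of 0.05 and 5.96% also changed more than 2-fold (DEGs). Among the 110 tested members, 0 were higher and 1 was lower by the test of edgeR, Cox6a2, which was also the only DEG. At an unadjusted p below 0.05 there were 12 members, which is 10.9% of those tested, against 26.3% of all tested genes. The median log2 fold change of CD36+ NK against CD36- NK was -0.019 in nuclear members, 0.38 in mitochondrially encoded members and 0.012 over all tested genes.

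**Figure D1:**
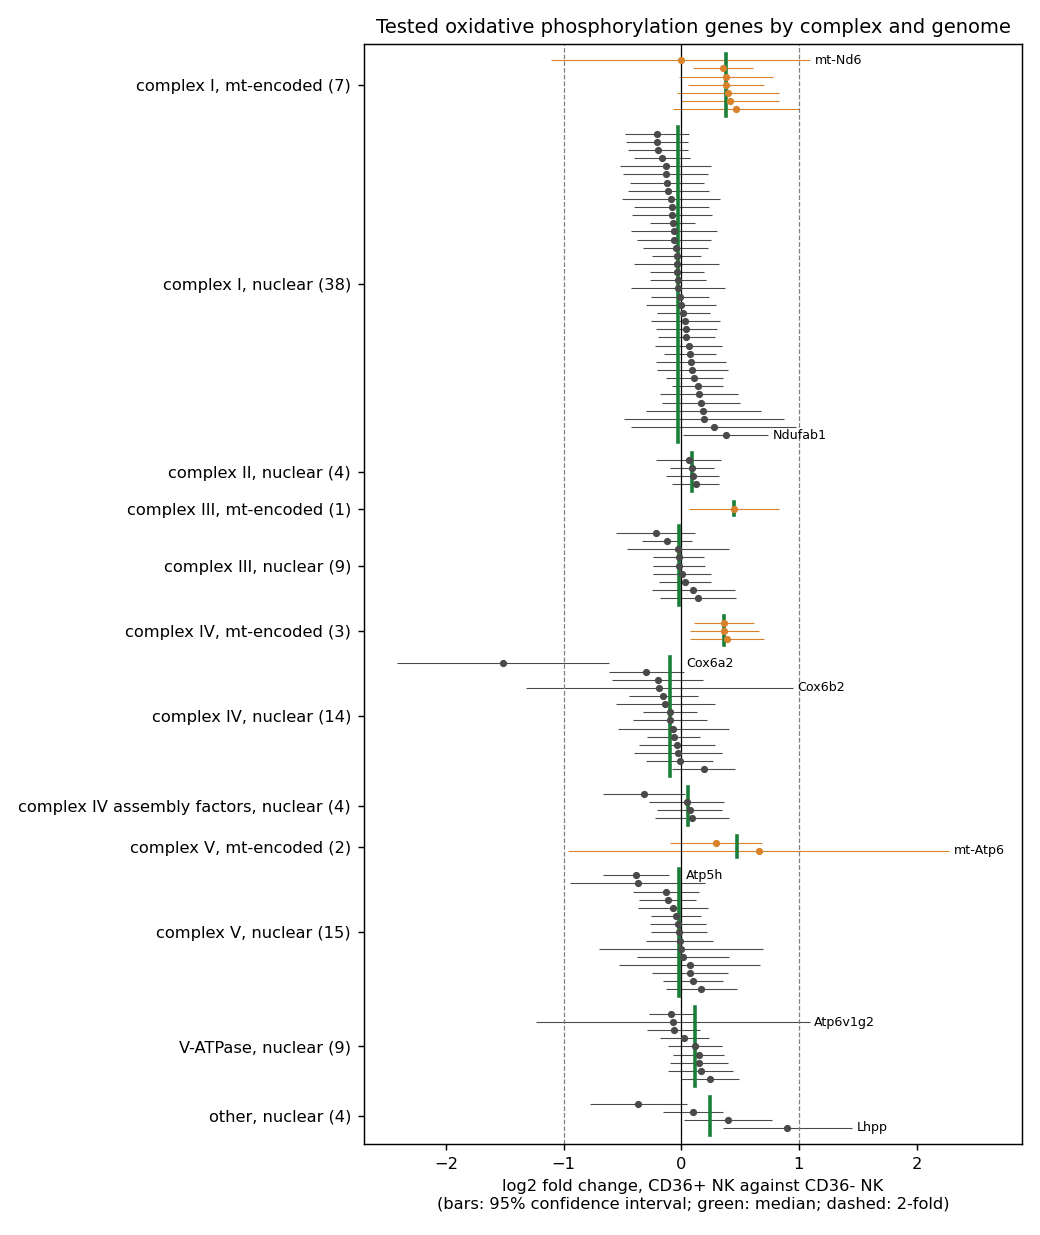
The plot gives the log2 fold change of each tested member on the x axis with its 95% confidence interval, by complex and by genome; the green line is the median of each set and the dashed lines mark 2-fold. Nuclear members (grey) cluster around 0 with Cox6a2 far to the left, and the mitochondrially encoded members (orange) other than mt-Nd6 lie to the right of 0.

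Per gene length, 12 of the 13 mitochondrially encoded members exceeded every nuclear member, since the highest nuclear member, Cox8a of complex IV, averaged 109 FPKM (counts per length and library total). The mean levels of the 13 ran from 9.51 FPKM (mt-Nd6) to 7990 FPKM (mt-Co1). Together they took 3.66%, 3.69% and 4.12% of the counts in CD36+ NK replicates 1 to 3 and 2.25%, 3.27% and 3.33% in CD36- NK replicates 1 to 3. The groups did not overlap, and CD36- NK replicate 1 was the lowest library. The difference of the means was 0.875 percentage points (exact permutation test, two-sided, p = 0.1, which is the smallest p that 3 against 3 libraries allow; adjusted p = 0.3 over the 6 single values computed). It was 0.527 percentage points without CD36- NK replicate 1, and 0.752 percentage points without mt-Atp6. The replicate 1 libraries carry names of another form than the rest. CD36+ NK was higher within the replicate 1 libraries (3.66% against 2.25%) and within the others (3.69% and 4.12% against 3.27% and 3.33%), which are too few to test apart.

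The 102 nuclear members took 0.682%, 0.617% and 0.625% of the counts in CD36+ NK and 0.712%, 0.660% and 0.605% in CD36- NK, with overlap between the groups (exact permutation test, p = 0.7). The libraries thus held 5.37, 5.99 and 6.59 mitochondrially encoded counts for each nuclear member count in CD36+ NK, and 3.17, 4.95 and 5.498 in CD36- NK. These ratios overlapped, since CD36- NK replicate 3 lay above CD36+ NK replicate 1 (exact permutation test, p = 0.2).

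**Figure D2:**
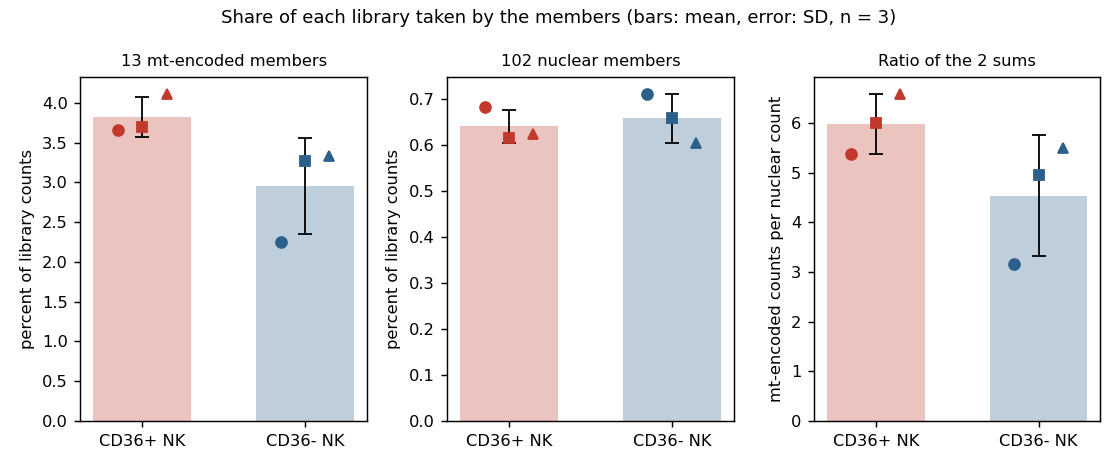
The panels show the percent of each library's counts taken by the 13 mitochondrially encoded members, the percent taken by the 102 nuclear members, and the ratio of the 2 sums; bars are means, error bars SD over 3 libraries and points single libraries. The first panel separates the groups (3.66% to 4.12% against 2.25% to 3.33%), and the other panels show overlapping points.

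By single genes, 12 of the 13 mitochondrially encoded members were higher in every CD36+ NK library than in every CD36- NK library, where 17% of all tested genes were so. None passed the test (edgeR, 0 of 13 at an adjusted p below 0.05 and 7 of 13 at an unadjusted p below 0.05; DESeq2 called mt-Co3). These genes come from shared transcripts of 1 genome, so they are not 13 separate observations. Apart from mt-Atp6 and mt-Nd6, the log2 fold changes of the other 11 lay between 0.29 and 0.47, with adjusted p from 0.0758 to 0.322. Without CD36- NK replicate 1, the median of the 13 was 0.24 in place of 0.38, and these 11 lay between 0.12 (mt-Atp8) and 0.29 (mt-Co3). The values of mt-Nd5 (0.24), mt-Nd4 (0.21), mt-Nd4l (0.20), mt-Nd2 (0.23) and mt-Cytb (0.28) were then also smaller by more than 1.5 times. With the form of the library name as a block, an alternative added after the values were seen, mt-Nd3 (adjusted p = 0.0366) and mt-Cytb (adjusted p = 0.0450) passed.

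For complex I, mt-Nd1, mt-Nd2, mt-Nd3, mt-Nd4l, mt-Nd4 and mt-Nd5 encode core subunits of the membrane arm. The mt-Nd1 level was 2181, 2265 and 2560 CPM in CD36+ NK and 1499, 1827 and 2050 CPM in CD36- NK. The mt-Nd5 level was 2078, 2440 and 2810 CPM against 1190, 2034 and 2075 CPM. In both genes the lowest CD36+ NK library lay just above the highest CD36- NK library, and CD36- NK replicate 1 was the lowest of all. Over these 6 genes the log2 fold change ran from 0.35 (mt-Nd3, SE 0.11, adjusted p = 0.0869) to 0.47 (mt-Nd5, SE 0.23, adjusted p = 0.247).

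mt-Nd6 is the only protein gene on the other strand of the genome. It was scarce and did not follow the rest, with 3.03, 4.34 and 7.48 CPM in CD36+ NK and 3.54, 3.27 and 8.20 CPM in CD36- NK. Its groups overlapped, at a log2 fold change of -0.0059 (SE 0.47, 95% interval -1.10 to 1.09), which covers the values of the other 12 genes. Its 14 bases shared with mt-Nd5 lie on opposite strands.

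mt-Cytb encodes cytochrome b, the mitochondrially encoded subunit of complex III. It was at 3358, 3585 and 4074 CPM in CD36+ NK and 2099, 2923 and 3063 CPM in CD36- NK. The groups did not overlap (log2 fold change 0.45, SE 0.16, adjusted p = 0.132).

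mt-Co1, mt-Co2 and mt-Co3 form the core of complex IV. mt-Co1 was at 13099, 13461 and 15614 CPM in CD36+ NK and 9113, 11294 and 11834 CPM in CD36- NK, with a log2 fold change of 0.39 (SE 0.13, adjusted p = 0.116). mt-Co2 was at 3380, 3317 and 3714 CPM against 2277, 2853 and 2949 CPM, with a log2 fold change of 0.37 (SE 0.13, adjusted p = 0.113). Neither gene overlapped between the groups. mt-Co3 was at 3137, 3044 and 3488 CPM against 2275, 2528 and 2705 CPM, and its adjusted p was the lowest of the 13 genes (log2 fold change 0.37, SE 0.11, adjusted p = 0.0758).

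mt-Atp8 and mt-Atp6 encode the membrane part of complex V that lets protons through. mt-Atp8 was at 939, 915 and 1095 CPM in CD36+ NK and 617, 882 and 909 CPM in CD36- NK, so that its groups lay close together (log2 fold change 0.29, SE 0.17, adjusted p = 0.322, and 0.12 without CD36- NK replicate 1). mt-Atp6 was at 3334, 3460 and 4015 CPM in CD36+ NK and at 343, 3194 and 3316 CPM in CD36- NK. CD36- NK replicate 1 stood apart there, with 4468 counts where the other 5 libraries held 33948 to 48292. It held 0.106 of the mean level of the other CD36- NK libraries, whereas for the other 12 genes that fraction ran from 0.579 to 0.870. With that library the log2 fold change of mt-Atp6 was 0.66 (SE 0.69, adjusted p = 0.612), and without it 0.13 (adjusted p = 0.493). It was 1.01 without CD36- NK replicate 3 and 1.14 under the block by the form of the library name.

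**Figure D3:**
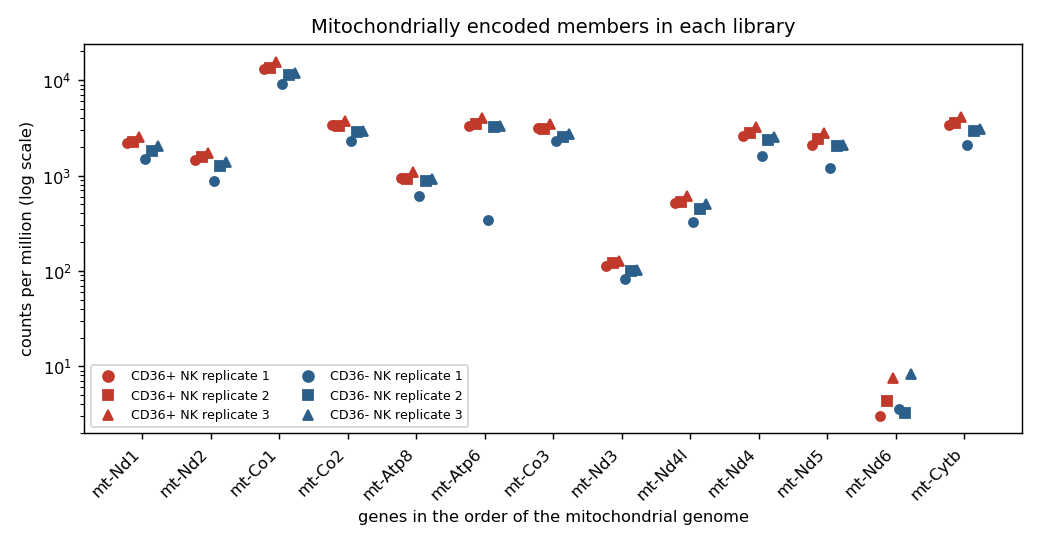
The plot gives the level of each mitochondrially encoded member in CPM on a log axis, with genes in genome order and 1 point a library. CD36+ NK libraries (red) sit above CD36- NK libraries (blue) for 12 genes by a small margin, mt-Atp6 in CD36- NK replicate 1 lies at 343 CPM far below its group, and mt-Nd6 is near the bottom of the scale with mixed groups.

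The sequences around mt-Atp6 show which reads could be shared between genes. mt-Atp8 and mt-Atp6 lie on the plus strand at chrM:7766-7969 and chrM:7927-8607, the same positions in the table and in the GRCm38 annotation of GENCODE, and share 43 bases (capitals, with 20 bases on either side), shown because the counts of a read there could go to either gene.
mt-Atp8/mt-Atp6, chrM:7907-7989, plus strand: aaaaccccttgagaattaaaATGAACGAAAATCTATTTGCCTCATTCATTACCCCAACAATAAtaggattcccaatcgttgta
The capitals open with the start codon of mt-Atp6 and end with the stop codon of mt-Atp8. In counts, mt-Atp6 stood at 3.55 to 3.78 per mt-Atp8 count in the 5 other libraries and at 0.557 in CD36- NK replicate 1. Against mt-Co3, which follows it and shares 1 base, the ratio was 1.06 to 1.26 in the 5 libraries and 0.151 in CD36- NK replicate 1.

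A stretch of chromosome 1 carries nuclear copies of mitochondrial DNA, and the table lists them as genes with counts of their own. Gm10925 matches mt-Atp6 over 678 of 681 bases with 0 mismatches in the GENCODE transcripts, and Gm28437 (mt-Co3), Gm28661 (mt-Co2), Gm28438 (mt-Nd3), Gm28439 (mt-Nd4) and Gm10222 (mt-Nd4l) match with 0 mismatches over 783, 681, 342, 876 and 294 bases. Gm29216 aligns with part of mt-Co1 over 483 of its 492 bases. This stretch holds 1 mismatch, A1066T, where positions count from the first base of mt-Co1. The pair is shown because it is the only one of the 7 with a difference (capital) inside the aligned stretch. The alignment was local and left out end bases of Gm29216 and of Gm28438 (342 of 345 bases aligned). Those bases may differ from the mitochondrial genes as well.
mt-Co1, chrM:6390-6449, plus strand: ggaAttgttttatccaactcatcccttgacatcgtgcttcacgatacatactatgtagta
Gm29216, chr1:24616129-24616188, minus strand: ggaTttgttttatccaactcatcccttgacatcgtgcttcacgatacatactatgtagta
Both positions are in GRCm38, and the table's own coordinates for the chromosome 1 copies differ from them. A read that lies within an identical stretch cannot be assigned by sequence to the mitochondrial gene or to its copy, and the levels above may miss such reads assigned to the copies. The aligned stretches cover 31.3% of mt-Co1, 63.6% of mt-Nd4 and 98.3% or more of the other 5 genes.

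The copies held from 16.3 to 28.7 counts per 100 counts of their mitochondrial gene for mt-Co3, mt-Co2, mt-Nd3 and mt-Nd4l in the 6 libraries, and 11.6 to 15.1 for mt-Nd4. For mt-Co1 and its partial copy the figure was 2.14 to 2.79. Gm10925 held 23.6 to 28.1 counts per 100 mt-Atp6 counts in 5 libraries and 129 in CD36- NK replicate 1. There Gm10925 kept 5776 counts, against 8330 to 13583 in the others, so the copy did not fall as far there as mt-Atp6 did. Summed with Gm10925, mt-Atp6 was at 4121, 4399 and 5144 CPM in CD36+ NK and at 788, 3952 and 4129 CPM in CD36- NK, and the sums of CD36- NK replicate 3 and CD36+ NK replicate 1 overlapped. Summed with Gm28437, mt-Co3 was at 3755, 3732 and 4308 CPM against 2646, 3037 and 3260 CPM, without overlap. The copies had log2 fold changes of 0.48 (Gm29216) to 0.62 (Gm28438), and none passed the test (adjusted p from 0.0891 to 0.244). How the authors' counting divided such reads was not tested.

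The nuclear members of the respiratory chain and ATP synthase were 83, of which 80 were tested. Their median log2 fold change was -0.027, and 1 of 80 passed the test. Over all 97 tested nuclear members, 87 (89.7%) differed by less than 0.25 on the log2 scale, where 53.4% of all tested genes did. For 93 of 97 (95.9%) the 95% interval lay within 2-fold in both directions, against 67.9% of all tested genes. Nuclear members also had higher levels per length (median 13.9 FPKM, against 4.65 FPKM over all tested genes). Their median SE was smaller (0.125 against 0.170). Genes of like level were not compared. Among the 97 tested nuclear members, the groups did not overlap in 6 that were higher and 5 that were lower in CD36+ NK, where 17% and 15.7% of all tested genes were higher and lower in this way. The Spearman rho between the mean FPKM of the groups was 0.995 over the 102 nuclear genes (a description across genes, which are not replicates). Mean levels spanned 0.047 to 109 FPKM, so a rho near this value says little about differences between the groups. It was not computed over all genes.

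**Figure D4:**
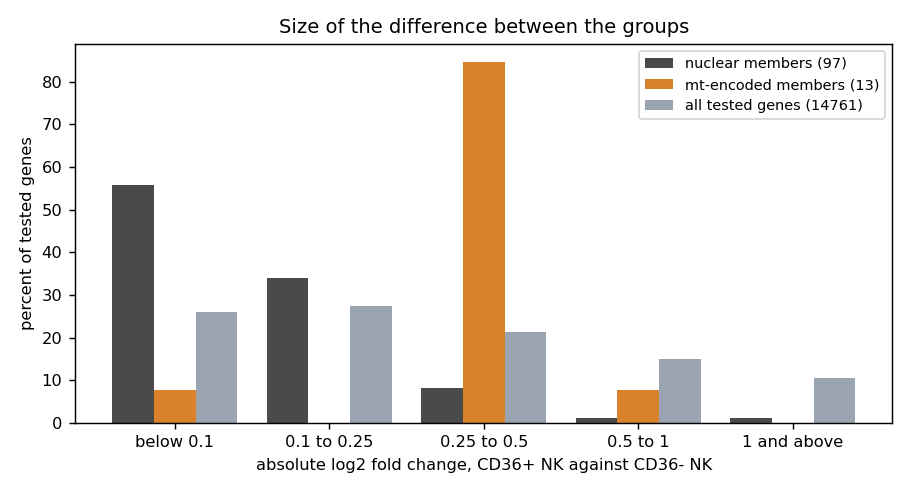
The bars give the percent of tested genes in each range of absolute log2 fold change for the 97 nuclear members, the 13 mitochondrially encoded members and all 14761 tested genes. Of the nuclear members, 55.7% lie below 0.1 against 26.0% of all tested genes, and 84.6% of the mitochondrially encoded members lie between 0.25 and 0.5.

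Of the 39 nuclear members of complex I, 38 were tested and none passed (lowest adjusted p = 0.175). Of these, 17 lay above and 21 below 0, between -0.21 and 0.38, and the interval of all 38 lay within 2-fold. Ndufb11, a membrane arm subunit, had the highest level of them per length (72.4 FPKM). It was at 66.6, 59.6 and 56.9 CPM in CD36+ NK and 80.0, 66.2 and 65.2 CPM in CD36- NK, with overlapping groups (log2 fold change -0.21, SE 0.12, adjusted p = 0.310). Ndufs4, a subunit of the NADH-oxidising arm whose loss causes Leigh-like disease in mice, was at 30.7, 33.6 and 34.7 CPM against 36.4, 35.6 and 38.9 CPM, with every CD36+ NK library below (log2 fold change -0.16, SE 0.10, adjusted p = 0.363).

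Ndufab1, the mitochondrial acyl carrier protein, is part of complex I and also serves fatty acid and iron-sulfur cluster synthesis. It had the largest rise of the 38 tested, with 15.04, 13.6 and 13.7 CPM in CD36+ NK and 10.7, 12.6 and 9.38 CPM in CD36- NK. The groups did not overlap, and the difference did not pass the test (log2 fold change 0.38, SE 0.15, adjusted p = 0.175). Ndufs6b, at 2 to 6 counts a library, was not tested.

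All 4 members of complex II, which also works in the TCA cycle, lay slightly above 0, from 0.061 to 0.12, and none passed. Sdhd, a membrane anchor and the most abundant of them per length (61.8 FPKM), was at 79.7, 77.3 and 78.8 CPM in CD36+ NK and 71.5, 77.9 and 72.1 CPM in CD36- NK, with overlap (log2 fold change 0.091, SE 0.080, adjusted p = 0.539). Sdha, the flavoprotein that oxidises succinate, was at 228, 231 and 243 CPM against 218, 224 and 202 CPM and did not overlap (log2 fold change 0.12, SE 0.086, adjusted p = 0.431).

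The 9 nuclear members of complex III lay between -0.22 and 0.14, with 4 above and 5 below 0 and no separated gene. Uqcrfs1, the Rieske iron-sulfur protein, led them at 71.4 FPKM. It was at 96.9, 99.8 and 93.4 CPM in CD36+ NK and 107, 90.9 and 96.6 CPM in CD36- NK (log2 fold change -0.023, SE 0.092, adjusted p = 0.912).

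Complex IV held the member that fell. Of its 16 nuclear members, among which Ndufa4 is counted, 14 were tested, and 13 of these lay below 0 (median -0.095), where 48.1% of all tested genes lay below 0. Cox6a2 is the heart and muscle isoform of a small regulatory subunit. It had 8, 11 and 4 counts in CD36+ NK and 24, 17 and 21 counts in CD36- NK, or 0.712, 0.809 and 0.333 CPM against 1.85, 1.503 and 2.05 CPM. The groups did not overlap, and the gene was lower in CD36+ NK (log2 fold change -1.52, SE 0.38, adjusted p = 0.0499, edgeR). The call ended under 11 of the 12 alternatives that tested it, with adjusted p up to 0.149. It lies at chr7:127804607-127805559 on the minus strand in the table's own coordinates, whose build is not named there.

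Cox6a1, the widely expressed partner of Cox6a2, was at 89.7 FPKM on average, against 1.79 FPKM for Cox6a2. It was at 120, 95.1 and 101 CPM in CD36+ NK and 126, 99.4 and 98.9 CPM in CD36- NK, and the groups overlapped (log2 fold change -0.037, SE 0.14, adjusted p = 0.906). Of this pair, the isoform that fell was the rarer per length.

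Cox8a, the most abundant nuclear member per length, was at 115, 85.8 and 109 CPM in CD36+ NK and 142, 119 and 119 CPM in CD36- NK. Every CD36+ NK library lay below, without passing the test (log2 fold change -0.30, SE 0.14, adjusted p = 0.220, and -0.18 without CD36+ NK replicate 2). Cox5a was the only tested nuclear member of complex IV above 0 (log2 fold change 0.19, adjusted p = 0.345), and the 12 remaining tested members lay between -0.30 and -0.015 with adjusted p of 0.220 or more. Their groups overlapped in all but Cox8a.

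Other isoforms of limited tissue range had few counts or none. Cox4i2, the oxygen-responsive lung isoform of subunit 4, had 5, 4 and 6 counts in CD36+ NK and 0, 0 and 0 in CD36- NK. Cox4i2 met the rule of at least 10 summed counts only through CD36+ NK. These counts are therefore a description, and no fold change is drawn from them. It had too few counts for the test. Its partner Cox4i1 averaged 72.8 FPKM and did not pass (log2 fold change -0.13, SE 0.18, adjusted p = 0.702). Cox7a1, a heart and muscle isoform, had 3, 1 and 2 counts in either group, whereas its partner Cox7a2 averaged 32.8 FPKM (log2 fold change -0.15, adjusted p = 0.499, and -0.034 without CD36- NK replicate 1). Cox8b and Ndufa4l2 had 0 counts in the 6 libraries and their partners Cox8a and Ndufa4 averaged 109 and 16.7 FPKM.

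**Figure D5:**
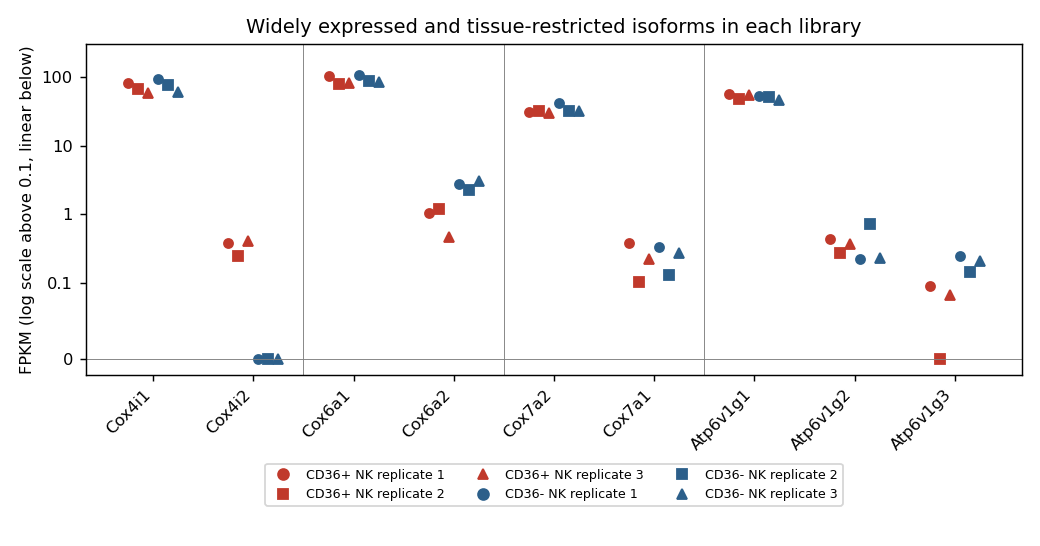
The plot gives the level in FPKM (log above 0.1, linear below) of isoforms and their partners, 1 point a library. The widely expressed forms Cox4i1, Cox6a1, Cox7a2 and Atp6v1g1 lie between 29.6 and 107 FPKM, with mixed groups except for Cox7a2, whose CD36+ NK libraries lie just below the CD36- NK ones in FPKM, and the restricted forms lie far below, with Cox4i2 at 0 in the 3 CD36- NK libraries and Cox6a2 separated.

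The 15 nuclear members of complex V were all tested and none passed, with 5 above and 10 below 0. Atp5b, the catalytic beta subunit, was at 692, 605 and 642 CPM in CD36+ NK and 670, 582 and 559 CPM in CD36- NK, with overlap (log2 fold change 0.098, SE 0.11, adjusted p = 0.629). Atp5h, a subunit of the peripheral stalk, was at 72.0, 58.3 and 60.9 CPM against 92.6, 79.2 and 77.3 CPM, with every CD36+ NK library below (log2 fold change -0.38, SE 0.12, adjusted p = 0.0880). It passed without CD36+ NK replicate 1 and with the form of the library name as a block.

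The 4 complex IV assembly factors in the pathway, which make heme A (Cox10 and Cox15) or handle copper (Cox11 and Cox17), did not pass. Cox11, which delivers copper and had the highest level per length (8.53 FPKM), was at 13.1, 13.5 and 15.96 CPM in CD36+ NK and 15.5, 19.7 and 17.97 CPM in CD36- NK, with overlap (log2 fold change -0.32, SE 0.15, adjusted p = 0.226). The other 3 lay between 0.046 and 0.090.

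The V-ATPase uses ATP to acidify lysosomes and other compartments, and the 10 members kept by the rule are its V1 subunits outside the lysosome pathway and Atp6v0e. Of 9 tested, 6 lay above 0 (median 0.12) and none passed. Atp6v1f, the most abundant per length at 77.4 FPKM, was at 86.2, 82.2 and 81.2 CPM in CD36+ NK and 87.9, 80.3 and 76.7 CPM in CD36- NK, with overlap (log2 fold change 0.027, SE 0.087, adjusted p = 0.891). Atp6v1e1, a stalk subunit, was at 93.7, 91.8 and 109 CPM against 86.7, 86.6 and 75.8 CPM without overlap (log2 fold change 0.24, SE 0.10, adjusted p = 0.201). Atp6v1b2, the ATP-binding B subunit of most tissues, was also separated, at 162, 161.0 and 175 CPM against 156, 160.7 and 131 CPM (log2 fold change 0.15, SE 0.11, adjusted p = 0.419, and 0.059 without CD36- NK replicate 3).

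Its kidney counterpart Atp6v1b1 had 0 counts in the 6 libraries, as did Atp6v1c2 and Atp6v1e2, while Atp6v1c1 averaged 7.74 FPKM (log2 fold change -0.063, adjusted p = 0.738). Among the G subunits, Atp6v1g1 averaged 51.4 FPKM (log2 fold change 0.12, adjusted p = 0.504). The neural form Atp6v1g2 had 15 to 50 counts a library (log2 fold change -0.070, SE 0.49, adjusted p = 0.951). Atp6v1g3 had 2, 0 and 2 counts in CD36+ NK and 6, 3 and 4 in CD36- NK and was not tested.

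The V0 sector carries protons through the membrane, and most of its genes belong to the lysosome pathway as well. Of the 10 tested genes of a list of V0 and accessory subunits, 2 were higher and 1 was lower, where 10.5% of all tested genes passed, and 9 lay above 0 (median log2 fold change 0.19). Atp6v0a1 was at 53.8, 55.5 and 56.6 CPM in CD36+ NK and 34.0, 36.5 and 36.2 CPM in CD36- NK (log2 fold change 0.64, SE 0.087, adjusted p = 0.00682). Atp6v0a2, another isoform of the same a subunit, moved the opposite way, at 84.4, 92.5 and 92.0 CPM against 139, 151 and 132 CPM (log2 fold change -0.65, SE 0.090, adjusted p = 0.00717). Neither pair of groups overlapped. Atp6v0b, a subunit of the rotor ring, was at 128, 134 and 135 CPM against 108, 109 and 100.4 CPM (log2 fold change 0.32, SE 0.081, adjusted p = 0.0489), a call that ended under 8 of 13 alternatives. Whether the V0 genes differed from the V1 members was not tested.

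The remaining 5 members are phosphatases, cytochrome c and a gastric proton pump. Lhpp, a histidine phosphatase that also splits pyrophosphate, had 6.85, 5.96 and 5.40 CPM in CD36+ NK and 2.92, 4.07 and 2.74 CPM in CD36- NK. The groups were well apart, and the gene lay just outside the threshold (log2 fold change 0.90, SE 0.23, adjusted p = 0.0533), while DESeq2 called it. Ppa1, the cytosolic pyrophosphatase and the most abundant of the 5 per length (7.34 FPKM), was at 33.4, 28.6 and 24.0 CPM against 24.6, 21.3 and 19.4 CPM with overlap (log2 fold change 0.39, SE 0.16, adjusted p = 0.169, and 0.26 without CD36+ NK replicate 1). Cycs, the somatic cytochrome c, was at 6.23, 5.44 and 5.07 CPM against 7.61, 6.63 and 7.32 CPM, below in every CD36+ NK library (log2 fold change -0.37, SE 0.17, adjusted p = 0.240). The testis form Cyct had 0 counts. Ppa2, the mitochondrial pyrophosphatase, was at a log2 fold change of 0.10 (adjusted p = 0.626). Atp4a, a subunit of the gastric proton pump, had 3, 1 and 0 counts against 8, 0 and 5 and was not tested.

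Genes that build and feed the complexes were listed by function outside the KEGG rule, and their counts can be read against the 10.5% of all tested genes that passed. Of the 42 tested mitochondrial assembly factors 0 passed (median log2 fold change 0.085), and of the 19 tested genes of the TCA cycle and pyruvate entry 0 passed (median 0.075). The mitochondrial ribosome, which translates the 13 mitochondrially encoded mRNAs, had 1 of 81 tested genes lower. This was Mrpl9, a large-subunit protein, at 56.3, 62.0 and 57.9 CPM in CD36+ NK and 87.6, 73.0 and 81.7 CPM in CD36- NK (log2 fold change -0.46, SE 0.099, adjusted p = 0.0311), and the call ended under 6 of 13 alternatives. Of 20 genes of mitochondrial genome expression and biogenesis, 0 passed. Tfam, which packages and transcribes mitochondrial DNA, was at a log2 fold change of -0.071 (SE 0.082, adjusted p = 0.647). Of 14 genes of ubiquinone synthesis and cytochrome c 0 passed (median 0.13), and of 8 tested carriers of ADP, ATP, phosphate and protons 0 passed (median 0.27). Ucp2, an inner membrane carrier of this list, had 6989, 8493 and 8778 counts in CD36+ NK and 6547, 5869 and 4251 in CD36- NK (log2 fold change 0.46, SE 0.12, adjusted p = 0.0584).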

How the data were processed

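Each of the 6 samples (3 per group) gave 1 mRNA library. The authors filtered reads with Seqtk, mapped them with HISAT2 2.0.4 and used StringTie, and deposited raw counts of fragments per gene and FPKM values (counts per length and library total) in 1 table of 57180 genes, of which 2 broken lines were rejoined. The submitters' notes name the rat build mRatBN7.2, while the genes are mouse genes and the table names no build, so the table's coordinates are given as they stand. Library names and titles use the CD36 sign differently and the titles were followed.

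Members were the rows described above, grouped by gene symbol into complexes and by the mt- prefix into genomes. Counts were tested with edgeR 4.0.16 (limma 3.58.1, R 4.3.3) after filterByExpr with a minimum count of 10 (14761 genes), with TMM scaling, the quasi-likelihood test and Benjamini-Hochberg adjustment over all tested genes. Passing means an adjusted p below 0.05, and DEGs also changed more than 2-fold. SE is the absolute log2 fold change over the square root of F. FPKM was used only to compare levels between genes. The biological coefficient of variation was 20.3%. Replicates differed by more than sampling noise (chi-square per degree of freedom 14.8 to 29.2). The script was tested on simulated data. Sequences and their identity come from GENCODE vM21 transcripts (GRCm38), aligned pairwise with Biopython.

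Members, lists and tests were chosen with earlier results of these data known. The named genes are all mitochondrially encoded members, the most abundant member of each complex, passing members, tissue-restricted isoforms with their partners, and passing genes of the lists. Others, including Ndufb11, Ndufs4, Ndufab1, Sdha, Uqcrfs1, Cox5a, Atp5b, Atp5h, Lhpp, Cycs, Ppa2, Tfam, Ucp2, the untested members and the chromosome 1 copies, were chosen after their values were seen. Promoters were found for fewer than 80% of nuclear members, so no motif was searched.

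Alternatives were DESeq2 1.42.0, upper-quartile scaling, scaling without mitochondrially encoded genes, other filters on low counts, a fold threshold of 1.5, the replicate number as a block, the form of the library name as a block (added after the values were seen) and each replicate left out.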

Additional observations from a re-analysis of the deposited data

How the results depend on the processing

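Leaving out 1 replicate at a time gave 0 to 1 members higher and 0 to 1 lower by the test, and 0 to 1 DEGs higher and 0 to 0 lower. The median log2 fold change then ran from -0.026 to 0.058 over all members, the latter without CD36- NK replicate 1. It ran from 0.24 to 0.51 in mitochondrially encoded members, -0.080 to 0.035 in nuclear chain and synthase genes and 0.059 to 0.18 in V-ATPase genes. With 1 library out, DEGs over all genes ranged from 417 to 1160 against 880.

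Against 0 in the main test, members higher were 2 by DESeq2 (Lhpp and mt-Co3) and 1 with no filter beyond 10 counts in all (Cox4i2, also 1 DEG). Cox4i2 passed that filter only through its counts in CD36+ NK, so its call is not support for a difference. Members higher were 1 with at least 10 counts in every library (Lhpp, a filter that removes Cox6a2). They were 2 with the form of the library name as a block (mt-Nd3 and mt-Cytb). Members lower, and lower DEGs, were 0 by DESeq2, under upper-quartile scaling, under either of these filters and under the replicate block. With the name form as a block, 1 member was lower (Atp5h) and 0 were DEGs. The cause of these changes was not tested.

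Samples with the same number in their titles had correlations of 0.310, 0.0515 and -0.0837. So few pairs cannot decide whether the libraries were paired. The library names number the CD36- NK samples differently from the titles, and pairing by those numbers was not checked. The replicate block called 0 members and 560 DEGs over all genes. The genes called by the test (Cox6a2, Mrpl9, Atp6v0a1, Atp6v0a2 and Atp6v0b) kept their direction under every alternative that tested them. Of the genes not called, mt-Nd6, Atp6v1f, Cox4i1, Cox6a1 and Atp6v1g2 crossed 0 under at least 1 alternative. Cox6a2 rested on 4 to 24 counts a library. With 1 library left out, the fold change moved by more than 1.5 times in 20 of the 32 genes named by the rule and tested, of which 0 were called. Without CD36- NK replicate 1 these included mt-Atp6, mt-Atp8, mt-Nd2, mt-Nd4, mt-Nd4l, mt-Nd5, mt-Cytb, Cox7a2 and Sdhd. Ndufa4 ran from -0.34 without CD36- NK replicate 3 to -0.055 without CD36- NK replicate 2. Under the replicate block mt-Atp6 was at 1.14.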
